A study of Mus musculus with 9 samples.

Results

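Expression of 10 genes that encode enzymes of de novo purine and pyrimidine synthesis was examined in E14 mouse embryonic stem cells, wild type (WT) or knockout (KO, Hbxip-/-) for Hbxip. The purine enzyme genes were Ppat, Gart, Pfas, Paics, Adsl, Atic and Impdh2, and the pyrimidine enzyme genes were Cad, Dhodh and Umps. They were taken by symbol, and all 10 were found among the 20287 genes listed in at least 1 of 9 RNA-seq libraries and passed the filter on low values. Hbxip, also named Lamtor5, encodes a subunit of Ragulator, the complex that anchors Rag GTPases on the lysosome for the activation of mTORC1. The cells were of strain 129 and came from 3 cultures: pluripotent culture, LIF withdrawal for 96 h (day 4), and embryoid bodies, whose age the labels do not give. LIF is the cytokine that maintains mouse embryonic stem cells, and embryoid bodies are cell aggregates in which differentiation begins. In every culture there was 1 WT library and there were 2 KO libraries, all of bulk RNA. The labels name no KO clone, do not say how the knockout was made and do not say whether the 2 KO libraries came from separate cultures, so the p-values below rest on the spread among these libraries, which may be technical. The WT libraries, with no replicate, are assumed to vary like the KO pairs.

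Cells build purines on phosphoribosyl pyrophosphate (PRPP), which PPAT commits to the pathway, and the further steps, carried out by GART, PFAS, PAICS, ADSL and ATIC, lead to inosine monophosphate (IMP). GART, PAICS and ATIC each carry several activities on a single polypeptide. IMPDH2 then turns IMP towards guanine nucleotides. Pyrimidines begin with CAD, whose single chain joins carbamoyl phosphate synthetase, aspartate transcarbamylase and dihydroorotase, and go on through DHODH in the inner mitochondrial membrane to UMPS, which makes uridine monophosphate. In proliferating cells mTORC1 is known to act on both pathways, on CAD through S6 kinase and on purine synthesis through ATF4 and the mitochondrial folate cycle, and MYC proteins are known activators of many of these genes.

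Promoter windows of 300 bases, from 250 before to 50 after a transcript start, were found for 8 of the 10 genes in RefSeq (build GRCm38.p6), and Dhodh and Pfas were not among them. The stretches below are shown because Cad and Gart had the largest falls in pluripotent KO cells, and because the E-box is the site of MYC-MAX and other basic helix-loop-helix factors. First come the 100 bases before the start of Cad and of Gart, which lie in no annotated gene of GENCODE M21, with GC boxes (GGGCGG on either strand) and the CCAAT box in capitals. The 30-base sites that follow have the E-box CACGTG or, for Umps, the cyclic AMP response element TGACGTCA in capitals.
Cad, chr5:31054680-31054779, + strand: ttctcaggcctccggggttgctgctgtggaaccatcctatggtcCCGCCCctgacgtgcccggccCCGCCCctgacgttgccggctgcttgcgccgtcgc
Gart, chr16:91646973-91647072, - strand: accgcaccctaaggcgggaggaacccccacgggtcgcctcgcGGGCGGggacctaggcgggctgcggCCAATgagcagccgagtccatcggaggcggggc
Atic, chr1:71557137-71557166, + strand: ggacctcggggtCACGTGgggtcgacacgc
Impdh2, chr9:108560314-108560343, + strand: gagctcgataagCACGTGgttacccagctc
Paics, chr5:76951087-76951116, + strand: cgcctcggaaagCACGTGgagggacctgct
Umps, chr16:33967017-33967046, - strand: ggacttctgggTGACGTCAcgggccccaag
The first base of the E-box lay at position -7 from the start of Atic, -110 from that of Impdh2 and -203 from that of Paics. In GENCODE M21 the Impdh2 site lies in the 5′ UTR of a longer Impdh2 transcript, 17 bases of the Atic site in that of Atic, and the Paics site in that of Ppat. Of the Umps site 22 bases lie in the 5′ UTR of Umps, and all of it in an exon of Gm15829. Both motifs read the same on either strand. CACGTG was present in 3 of the 8 windows and in 7.15% of 32851 RefSeq windows of this length. TGACGTCA was present in 1 of 8 and 1.79%, GGGCGG in 8 of 8 and 35.7%, and CCAAT in 4 of 8 and 37.4%. In Atic 2 GC box matches overlapped by 1 base. A match describes the letters only. Ppat and Paics lie head to head on opposite strands with starts 276 bases apart, and their transcripts overlap there. Strandedness of the libraries is not given, so it is not known whether reads from that overlap could be assigned to a strand. The expected counts of both genes were whole numbers in every library.

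Libraries held 10147277 to 10863845 rounded counts, and a member had at least 361 counts in every library. Lamtor5 was at 38.5 to 41.8 FPKM in WT and 15.5 to 31.0 FPKM in KO libraries, so transcripts remained and the knockout rests on the labels. FPKM scales reads by gene length and library size. Markers were compared as well. All 10 embryonic stem cell markers were at 1 FPKM or more in every library, with sums of 3917 to 5112 FPKM in WT and 3828 to 4963 FPKM in KO. In pluripotent culture, where the enzyme genes had their lowest median, 7 of these 10 markers were lower and 1 higher in KO (median log2 fold change -0.31). Calls use the threshold given below, and 26.3% of all genes tested were lower and 25.5% higher in this comparison. The marker counts that follow for pluripotent culture are to be read beside these shares. After LIF withdrawal 1 was lower and 4 higher (17.5% and 18.4% of all genes), and in embryoid bodies 2 and 5 (17.8% and 19.4%). The summed level of 10 primed epiblast and primitive streak genes was 44.1, 190 and 386 FPKM in WT in the order of cultures above. In KO it was 16.4 and 19.8, then 71.9 and 101, then 142 and 164 FPKM, with 1 to 4 of the 10 genes at 0 in each KO library and 0 in WT. The 9 extraembryonic endoderm genes summed to 106, 155 and 310 FPKM in WT. In KO they summed to 1229 and 1084, then 358 and 319, then 513 and 444 FPKM, with 3 to 5 of the 9 at 1 FPKM or more and 0 to 3 at 0 in each of the 9 libraries. A single gene, Apoe, carried most of these sums, at 98.8 FPKM in WT against 1202 and 1063 in KO pluripotent cells, while Sox7 (1.92 against 0.53 and 0.44 FPKM) and Dab2 (2.0 against 0.88 and 0.77 FPKM) lay lower in KO there. Of the 6 genes tested on that list 3 were higher and 2 lower in pluripotent culture. The 6 neural markers summed to 130 FPKM in WT against 56.4 and 55.2 in KO pluripotent cells (1 higher, 4 lower, median log2 fold change -1.31). After LIF withdrawal they summed to 68.4 FPKM in WT against 59.5 and 55.3 in KO (1 higher, 4 lower, median -1.15). In embryoid bodies the sums were 43.8 FPKM in WT against 48.6 and 42.8 in KO (2 higher, 3 lower, median -0.42). The shares of all genes given above apply to these counts. In every library 0 of the 6 were at 0. The 8 fibroblast and feeder markers were lower in sum in KO in each culture, at 38.8 against 18.6 and 23.4, then 16.6 against 7.67 and 10.1, then 33.3 against 22.8 and 24.5 FPKM, with 1 to 3 at 0. Of these 8 genes 3 passed the filter. In KO 0 were higher and 2 lower in pluripotent culture, 0 and 2 after LIF withdrawal, and 1 and 1 in embryoid bodies. The part of these marker differences in the results below was not tested.

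On the FPKM scale Paics was the highest of the 10 genes, with a median of 217 over the 9 libraries, followed by Impdh2 (177), Gart (116), Atic (78.6) and Umps (53.8). Ppat (43.5), Cad (37.6, from 21.7 to 91.3), Adsl (25.1), Pfas (20.6) and Dhodh (15.7) were lower. The ranges of each neighbouring pair in this order overlapped. Umps varied least, by a factor of 1.19 between its lowest and highest library, and Cad most, by a factor of 4.20. Ppat, the gene of the committed purine step, lay below Gart, Paics, Atic and Impdh2 in every library. Summed over the 10 genes, the level was 981, 965 and 846 FPKM in WT pluripotent, LIF withdrawal and embryoid body cells. The KO libraries summed to 696 and 706, then 790 and 771, then 695 and 719 FPKM, each below the WT library of its culture. Paics, Impdh2 and Gart, the highest genes, weigh most in these sums. On the FPKM scale both KO libraries lay below WT for 53.2%, 48% and 43.8% of all genes tested, in the same order.

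**Figure D1:**
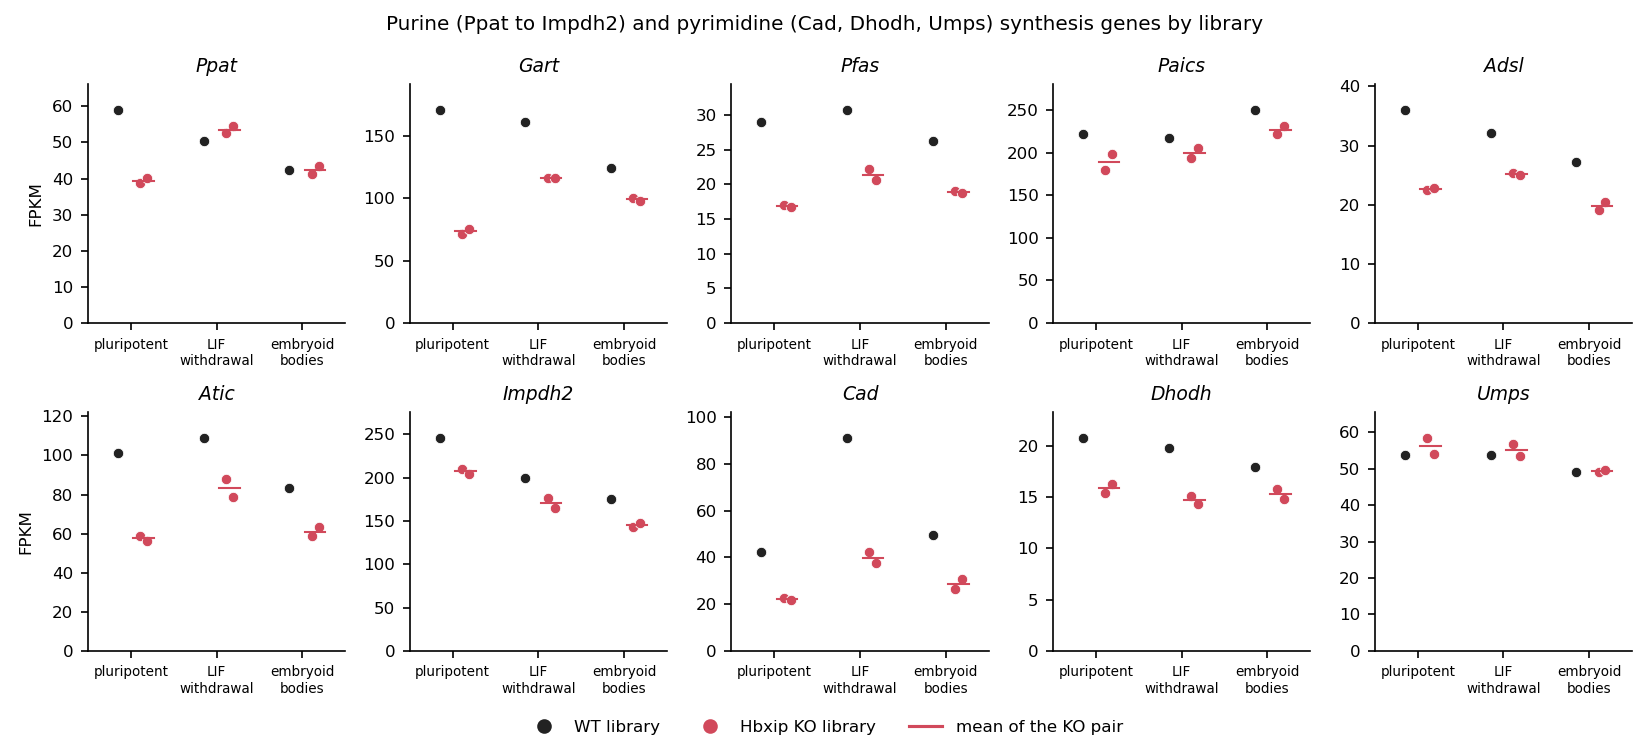
Level of each gene in FPKM (y axis, from 0) in the 3 cultures (x axis), with 1 point per library and a line at the mean of the 2 KO libraries. Cad and Gart show wide gaps between WT and KO, for example 171 against 71.7 and 75.5 FPKM for Gart in pluripotent cells, while Umps stays between 49.1 and 58.5 FPKM in all 9 libraries.

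The first question was how the genotypes differed within a culture. In pluripotent culture 6 of the 10 genes fell in KO cells and 0 rose. Of all 13990 genes tested, 26.3% were lower and 25.5% higher in this comparison, and the median log2 fold change was -0.50 over the 10 genes and -0.01 over all genes. Throughout, a gene was called where the Benjamini-Hochberg adjusted p of edgeR's quasi-likelihood test was below 0.05, and values after ± are standard errors of the log2 fold change, derived from the test's F. In bulk RNA, fewer cells of a type and less RNA per cell cannot be told apart.

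Of the purine genes Gart, which carries out several steps of the route to IMP, was at 171 FPKM in WT against 71.7 and 75.5 in KO pluripotent cells. It fell to 0.469 of the WT level (log2 fold change -1.09 ± 0.08, adjusted p = 4.17e-07). Atic, for the last steps to IMP, was at 101 FPKM in WT against 58.7 and 56.3 in KO, a change of -0.69 ± 0.10 (adjusted p = 0.000108). Pfas, for a glutamine-dependent step that lies between those of GART, was at 28.9 FPKM in WT against 17.0 and 16.8 in KO (-0.65 ± 0.09, adjusted p = 7.65e-05). In these 3 genes the KO pair lay close together and far below WT. Adsl, whose product acts both before IMP and on the way to AMP, was at 36.0 FPKM in WT against 22.5 and 22.8 in KO (-0.55 ± 0.09, adjusted p = 0.000249). Ppat, for the committed step, was at 59.0 FPKM in WT against 38.7 and 40.0 in KO (-0.46 ± 0.08, adjusted p = 0.000471). Paics, for middle steps of the route, did not pass the threshold, with 222 FPKM in WT against 180 and 198 in KO (-0.11 ± 0.08, adjusted p = 0.287). Impdh2 was at 246 FPKM in WT against 211 and 205 in KO (-0.12 ± 0.09, adjusted p = 0.268).

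The 3 pyrimidine genes differed from each other in pluripotent culture. Cad was at 42.4 FPKM in WT against 22.6 and 21.7 in KO, and it fell to 0.568 of the WT level (-0.82 ± 0.11, adjusted p = 7.20e-05). Dhodh, the oxidation step, was at 20.8 FPKM in WT against 15.4 and 16.3 in KO, with -0.27 ± 0.11, and missed the threshold (adjusted p = 0.0589). Umps was at 53.8 FPKM in WT against 58.5 and 53.9 in KO (0.19 ± 0.10, adjusted p = 0.122), so that both KO libraries lay at or above WT. With limma on log2(FPKM + 1) in place of edgeR, Dhodh (-0.37, adjusted p = 0.0137) and Impdh2 (-0.24, adjusted p = 0.0257) were also called lower, and on that scale the median of all genes was itself at -0.11.

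After LIF withdrawal 6 genes fell in KO against WT and 0 rose, where 17.5% of all genes tested were lower and 18.4% higher. The median was -0.31 over the 10 genes and 0 over all genes. Cad had the largest difference: it was at 91.3 FPKM in WT against 42.4 and 37.6 in KO, and its level in KO was 0.455 of that in WT (-1.14 ± 0.11, adjusted p = 6.25e-06). Pfas was at 30.7 FPKM in WT against 22.2 and 20.6 in KO (-0.46 ± 0.09, adjusted p = 0.00148), and Gart at 161 FPKM in WT against 116 and 116 in KO (-0.41 ± 0.08, adjusted p = 0.00125). In both genes the KO pair lay below WT by more than the pair's own gap.

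Dhodh was at 19.8 FPKM in WT against 15.1 and 14.3 in KO after LIF withdrawal (-0.36 ± 0.11, adjusted p = 0.0214). Atic was at 109 FPKM in WT against 87.8 and 78.6 in KO (-0.33 ± 0.10, adjusted p = 0.0204), and Adsl at 32.1 FPKM in WT against 25.4 and 25.1 in KO (-0.29 ± 0.09, adjusted p = 0.0230). These 3 calls were lost with DESeq2 and without KO LIF withdrawal replicate 2, each of which left 3 members called, and those of Dhodh and Adsl also with no filter on low values. Paics (-0.06 ± 0.08, adjusted p = 0.641), Impdh2 (-0.16 ± 0.09, adjusted p = 0.174) and Umps (0.09 ± 0.10, adjusted p = 0.481) did not pass the threshold. Impdh2 was called lower with limma on log2(FPKM + 1), at -0.22 (adjusted p = 0.0484). Ppat was at 50.4 FPKM in WT against 52.6 and 54.6 in KO (0.15 ± 0.08, adjusted p = 0.180), with both KO libraries above WT.

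In embryoid bodies 6 genes again fell in KO and 0 rose, against 17.8% of all genes lower and 19.4% higher, with medians of -0.31 over the 10 genes and 0 over all genes. Cad was at 49.6 FPKM in WT against 26.6 and 31.0 in KO (-0.79 ± 0.11, adjusted p = 0.000141). Pfas was at 26.3 FPKM in WT against 19.0 and 18.7 in KO (-0.48 ± 0.09, adjusted p = 0.00120), and Adsl at 27.3 FPKM in WT against 19.1 and 20.4 in KO (-0.47 ± 0.09, adjusted p = 0.00153). Atic was at 83.5 FPKM in WT against 58.6 and 63.2 in KO (-0.46 ± 0.10, adjusted p = 0.00329). The gap between WT and KO was narrower for Gart, at 125 FPKM in WT against 100.2 and 98.2 in KO (-0.34 ± 0.08, adjusted p = 0.00490).

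Impdh2 was at 175 FPKM in WT embryoid bodies against 143 and 148 in KO (-0.27 ± 0.09, adjusted p = 0.0280), a call lost with DESeq2 (adjusted p = 0.0531), with no filter on low values (adjusted p = 0.0628), and without KO embryoid body replicate 1 (-0.25) or 2 (-0.30). Dhodh was at 18.0 FPKM in WT against 15.7 and 14.9 in KO (-0.24 ± 0.11, adjusted p = 0.117). Paics was at 250 FPKM in WT against 222 and 232 in KO (-0.14 ± 0.08, adjusted p = 0.189). Ppat, with 42.3 FPKM in WT against 41.4 and 43.5 in KO, and Umps, with 49.2 FPKM in WT against 49.1 and 49.6 in KO, had WT between or next to the KO pair.

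**Figure D2:**
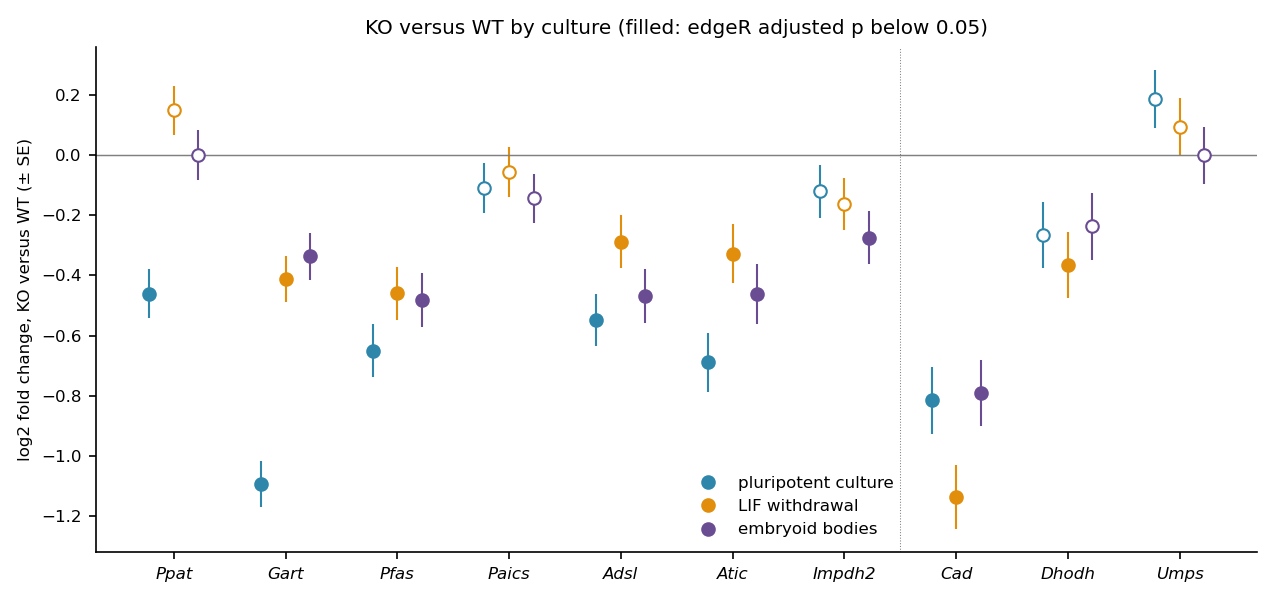
Log2 fold change of KO versus WT (y axis, ± SE) for the 7 purine genes and, right of the dotted line, the 3 pyrimidine genes, in each culture (colour). Filled points passed the threshold; Cad, Gart, Pfas, Adsl and Atic are filled in all 3 cultures, and Paics and Umps in 0 of 3.

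Cad, Gart, Pfas, Adsl and Atic were thus called lower in each of the 3 cultures. The 3 fold changes compare different libraries, but their tests come from 1 fit. They share its estimate of spread, drawn from the KO pairs, so the calls are not independent. An additive fit of culture and genotype gave a single difference over the 3 cultures, with 6 genes lower and 0 higher, where 13.8% of all genes were lower and 13.3% higher. Its residual pools how the difference varied between cultures with the smaller spread within KO pairs. Cad was at -0.92 ± 0.10 (adjusted p = 0.000400), Pfas at -0.53 ± 0.07 (adjusted p = 0.00125), Adsl at -0.44 ± 0.08 (adjusted p = 0.00374) and Atic at -0.49 ± 0.09 (adjusted p = 0.00455). Gart was at -0.63 ± 0.13 (adjusted p = 0.00900), and at -0.37 without the WT pluripotent library. Dhodh was at -0.29 ± 0.08 (adjusted p = 0.0293), a call lost with no filter on low values and without any 1 of the 6 KO libraries or the WT LIF withdrawal library. Ppat (-0.11 ± 0.11, and 0.07 without the WT pluripotent library), Paics (-0.10 ± 0.07), Impdh2 (-0.19 ± 0.07, adjusted p = 0.0951) and Umps (0.09 ± 0.08) were not called, although Impdh2 was with limma (-0.24) and without the WT pluripotent library (-0.22).

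The second question was how the genes moved when cells left pluripotent culture. On LIF withdrawal in WT, Cad alone of the 10 genes passed the threshold, rising from 42.4 to 91.3 FPKM (1.13 ± 0.13, adjusted p = 8.08e-05), where 11.6% of all genes were higher and 8.9% lower. With limma on log2(FPKM + 1) Impdh2 was called as well, at -0.30 (adjusted p = 0.0490). In KO, 5 genes rose and 1 fell, where 30.2% of all genes were higher and 29% lower. Cad rose from 22.6 and 21.7 to 42.4 and 37.6 FPKM (0.81 ± 0.09, adjusted p = 1.37e-05), beside 42.4 FPKM in pluripotent WT cells. Gart rose by 0.63 ± 0.06 (adjusted p = 5.98e-06), Atic by 0.50 ± 0.08 (adjusted p = 0.000249), Ppat by 0.41 ± 0.07 (adjusted p = 0.000214) and Pfas by 0.30 ± 0.08 (adjusted p = 0.00386), while Impdh2 fell (-0.31 ± 0.07, adjusted p = 0.00242). The WT comparisons rest on 1 library a side, assumed to vary like the KO pairs, and all responses use the same pluripotent libraries.

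In embryoid bodies compared with pluripotent culture, 4 genes fell and 0 rose in WT, where 18.9% of all genes were lower and 19.7% higher. They were Impdh2 (-0.47 ± 0.10, adjusted p = 0.00327), Ppat (-0.46 ± 0.09, adjusted p = 0.00235), Gart (-0.43 ± 0.09, adjusted p = 0.00254) and Adsl (-0.38 ± 0.10, adjusted p = 0.0109), the last of which was not called with DESeq2. In KO, 2 genes rose and 3 fell, against 31% of all genes higher and 30% lower. Gart rose by 0.32 ± 0.07 (adjusted p = 0.000989) and Cad by 0.27 ± 0.09 (adjusted p = 0.0264). The genes that fell were Impdh2 (-0.62 ± 0.07, adjusted p = 1.43e-05), Adsl (-0.30 ± 0.08, adjusted p = 0.00406) and Umps (-0.30 ± 0.08, adjusted p = 0.00559). Without KO pluripotent replicate 1 the calls of Cad (0.30) and Umps (-0.23) were lost, which left 3. That of Cad was also lost without KO pluripotent replicate 2 (0.22) or KO embryoid body replicate 2 (0.15), and that of Adsl without KO embryoid body replicate 1 (-0.25). Paics, at 0.16 ± 0.07 (adjusted p = 0.0603), was called higher with limma on log2(FPKM + 1), at 0.26.

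Whether the KO response differed from the WT response was tested by an interaction contrast, which is also the change of the genotype difference from pluripotent culture. For LIF withdrawal 2 genes had a higher response in KO and 0 a lower one, where 17.5% of all genes were higher and 14.9% lower. They were Gart, at 0.68 ± 0.11 (adjusted p = 0.000724), and Ppat, at 0.61 ± 0.11 (adjusted p = 0.00189). For embryoid bodies the same genes, Gart at 0.76 ± 0.11 (adjusted p = 0.000263) and Ppat at 0.46 ± 0.12 (adjusted p = 0.00751), made up the 2 higher calls, against 22.4% of all genes higher and 19.5% lower. In each contrast the 2 higher calls among the members were near the share of all genes. Both contrasts use the 1 WT and 2 KO pluripotent libraries. For Gart the genotype difference was wider in pluripotent culture than in the other cultures. For Ppat a fall of KO in pluripotent culture had no counterpart later. The changes for Cad were -0.32 ± 0.16 (adjusted p = 0.138) and 0.02 ± 0.16 (adjusted p = 0.923), and the first was called only without KO LIF withdrawal replicate 1 (-0.44). That of Atic for LIF withdrawal, 0.36 ± 0.14 (adjusted p = 0.0697), was called without KO LIF withdrawal replicate 2 (0.46).

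Across the 9 libraries, log2(FPKM + 1) values of Gart, Pfas and Atic moved most closely together, with Pearson correlations of 0.95 for Gart and Pfas, 0.95 for Pfas and Atic and 0.93 for Gart and Atic. Cad followed Atic and Pfas (0.91 with each). The neighbours Ppat and Paics did not share a pattern, with a correlation of 0.08. The ratio of Paics to Ppat FPKM was 3.76 in WT and 4.65 and 4.94 in KO pluripotent cells. After LIF withdrawal it was 4.30 in WT and 3.69 and 3.77 in KO, and in embryoid bodies 5.90 in WT and 5.37 and 5.32 in KO, so KO lay above WT in the first culture and below it in the other two. Umps and Paics varied little, by factors of 1.19 and 1.39 between lowest and highest library. They ran against each other, at -0.89. These are descriptions over libraries that share genotype and culture.

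The rest of nucleotide metabolism was followed in lists of 65 further genes, 61 of which passed the filter. In KO against WT, 10 were higher and 26 lower in pluripotent culture, 2 and 24 after LIF withdrawal, and 4 and 22 in embryoid bodies, to be read beside the shares of all genes given above. PRPP, the sugar phosphate that both pathways consume, is made by PRPS enzymes, and of 4 genes on that list 1 was higher and 2 lower, 0 and 2, and 0 and 2 (medians -0.79, -0.33 and -0.33). Prps1 was at 77.8 FPKM in WT against 16.5 and 18.5 in KO pluripotent cells, and it fell (-2.03 ± 0.13, adjusted p = 2.14e-07). Prps2 was at 34.0 FPKM in WT against 8.48 and 10.9 in KO (-1.69 ± 0.11, adjusted p = 2.66e-07). Both KO libraries lay far below WT for each gene. Of the 10 enzymes Gart had the largest fall there, -1.09, and the difference in size was not tested. The difference was -1.20 ± 0.13 for Prps1 and -0.59 ± 0.11 for Prps2 after LIF withdrawal, and -0.71 ± 0.13 and -0.41 ± 0.11 in embryoid bodies, all called lower. Prpsap1, a PRPS-associated protein gene, rose in pluripotent KO cells (0.87 ± 0.12).

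**Figure D3:**
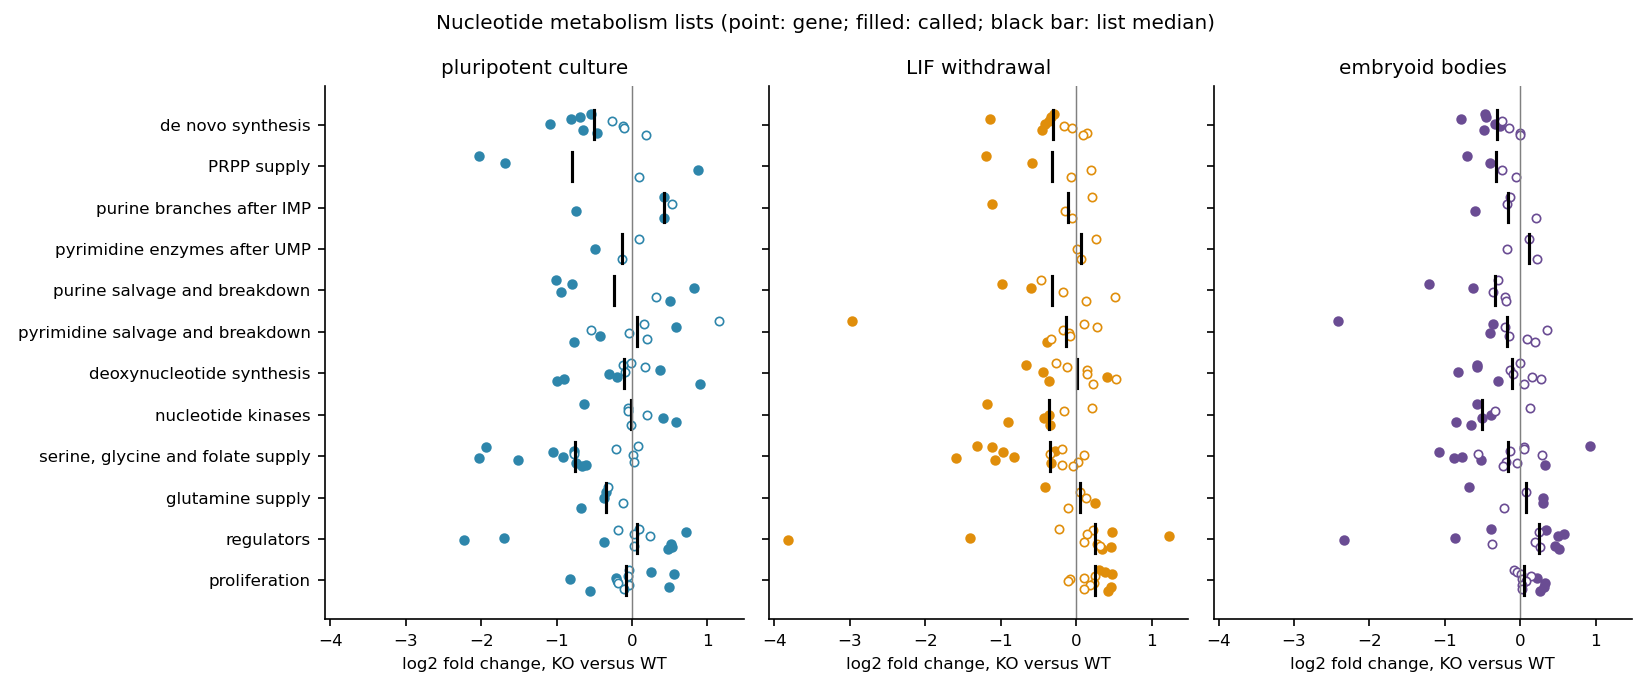
Log2 fold change of KO versus WT (x axis) for the genes of each list (rows) in the 3 cultures (panels), 1 point per gene, filled where called, with a black bar at the list median. The 10 de novo enzymes are in the top row, with medians of -0.50, -0.31 and -0.31, and the 14 serine, glycine and folate genes have medians of -0.76, -0.34 and -0.16.

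Serine, glycine and one-carbon folate units feed purine rings and thymidylate. Of the 14 genes on that list, 0 were higher and 9 lower in pluripotent culture, 0 and 8 after LIF withdrawal, and 2 and 4 in embryoid bodies, with medians of -0.76, -0.34 and -0.16. Psat1, of serine synthesis, was at 166 FPKM in WT against 36.9 and 37.8 in KO pluripotent cells (-2.03 ± 0.08, adjusted p = 1.19e-08). In embryoid bodies Psat1 was at 63.0 FPKM in WT against 33.2 and 35.8 in KO (-0.87 ± 0.09). Phgdh, for the first step of serine synthesis, had -0.91 ± 0.09, -0.82 ± 0.09 and -0.77 ± 0.09 in the 3 cultures in order. Shmt2, which splits serine in mitochondria, rose in KO embryoid bodies (0.33 ± 0.10, adjusted p = 0.0181), as did the folate enzyme gene Aldh1l1 (0.92 ± 0.19). Elsewhere both lay the other way. Shmt2 was at 154 FPKM in WT against 86.9 and 98.4 in KO pluripotent cells, and at 128 against 101 and 114 after LIF withdrawal. Aldh1l1 was at 7.52 FPKM in WT against 2.41 and 3.4 in KO after LIF withdrawal. Of 5 glutamine supply genes, 0 were higher and 3 lower, 1 and 1, and 2 and 1 in the same order (medians -0.34, 0.05 and 0.08). The amino acid transporter gene Slc38a2 (-0.68 ± 0.09) and the glutamine synthetase gene Glul (-0.34 ± 0.08) were lower in pluripotent KO cells. The transporter gene Slc38a1 was higher after LIF withdrawal (0.25 ± 0.09) and in embryoid bodies (0.30 ± 0.09).

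Beyond IMP and UMP the changes were mixed. Of 4 genes of the purine branches, 2 were higher and 1 lower in pluripotent culture, 0 and 1 after LIF withdrawal, and 0 and 1 in embryoid bodies (medians 0.42, -0.10 and -0.16). Gmps, the GMP synthetase gene that follows IMPDH, was at 37.5 FPKM in WT against 20.3 and 20.9 in KO pluripotent cells (-0.74 ± 0.08), and it was lower again in embryoid bodies (-0.60 ± 0.08). Impdh1, the isoenzyme of IMPDH2, rose in pluripotent KO cells (0.42 ± 0.10, adjusted p = 0.00388), as did Adss, for the branch to AMP (0.42 ± 0.10). Impdh2 made up 87.7% of the summed FPKM of both IMPDH genes in WT pluripotent cells and 82.8% and 83.4% in KO. The share was 85.3% in WT and 84.5% and 84.2% in KO after LIF withdrawal, and 85.0% in WT and 79.3% and 81.0% in KO in embryoid bodies. Of 3 pyrimidine genes after UMP, Ctps, for CTP synthesis, was lower in pluripotent culture (-0.50 ± 0.09), and 0 of 3 were called in the other cultures.

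Salvage enzymes recycle bases and nucleosides. Hprt, which salvages hypoxanthine and guanine, had 1 to 6 counts in every library, 0.07 to 0.43 FPKM, and did not pass the filter; it was singled out after its values were seen. E14Tg2a, a common derivative of E14, is known for a deletion in Hprt, and the labels do not say which derivative was used. Of the 9 purine salvage and breakdown genes 6 were tested, with 2 higher and 3 lower in pluripotent culture, 0 and 2 after LIF withdrawal, and 0 and 2 in embryoid bodies (medians -0.23, -0.33 and -0.33). Adk, the adenosine kinase gene, was lower in all 3 cultures (-0.79 ± 0.11, -0.98 ± 0.10 and -1.22 ± 0.09), at 71.8 FPKM in WT against 30.8 and 31.6 in KO embryoid bodies. Aprt, for adenine salvage, was higher in KO pluripotent cells (0.82 ± 0.13) and lower after LIF withdrawal (-0.59 ± 0.14) and in embryoid bodies (-0.63 ± 0.14). Of 8 pyrimidine salvage genes tested, 1 was higher and 2 lower, 0 and 2, and 0 and 3 (medians 0.06, -0.13 and -0.18). Upp1, the uridine phosphorylase gene, was at 485 FPKM in WT against 232 and 293 in KO pluripotent cells (-0.76 ± 0.11), and the kinase gene Uck2 was lower there as well (-0.42 ± 0.09).

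Genes for DNA precursors split in direction. Of 10 deoxynucleotide genes, 2 were higher and 4 lower in pluripotent culture, 1 and 3 after LIF withdrawal, and 0 and 4 in embryoid bodies (medians -0.10, 0.01 and -0.11). Tyms, for thymidylate synthesis, was at 35.9 FPKM in WT against 63.0 and 60.8 in KO pluripotent cells (0.91 ± 0.09, adjusted p = 4.95e-06), while Samhd1, which degrades deoxynucleotides, fell there (-0.99 ± 0.09). Rrm2, a ribonucleotide reductase subunit gene, was higher after LIF withdrawal (0.41 ± 0.08). The dUTPase gene Dut was lower after LIF withdrawal (-0.44 ± 0.09) and in embryoid bodies (-0.83 ± 0.09). Of 7 nucleotide kinase genes, 2 were higher and 1 lower in pluripotent culture, and 0 higher and 5 lower in each of the other cultures (medians -0.01, -0.36 and -0.51). Nme2 was higher in KO in pluripotent culture (0.41 ± 0.09) and lower after LIF withdrawal (-0.42 ± 0.08) and in embryoid bodies (-0.51 ± 0.09). Nme1 and Nme2 are near-identical neighbours, and their expected counts were whole numbers in every library. How reads were assigned between them was not tested. Fractions did occur in the expected counts of Pfas, Adsl, Prps1 and Prps2, among others, whose reads may be shared with other sequences.

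Of 12 proliferation genes 3 were higher and 3 lower in pluripotent culture (median -0.08), 5 and 0 after LIF withdrawal (0.24) and 4 and 0 in embryoid bodies (0.05). Of all genes tested, 25.5% were higher and 26.3% lower in pluripotent culture, so the counts there were near the share of all genes. The shares were 18.4% and 17.5% after LIF withdrawal and 19.4% and 17.8% in embryoid bodies. Mki67 was higher in KO in each culture (0.49 ± 0.09, 0.47 ± 0.09 and 0.31 ± 0.09), and the replicative helicase gene Mcm4 fell in pluripotent culture (-0.82 ± 0.08). Among 12 regulators 4 were higher and 3 lower, 4 and 2, and 5 and 3 (medians 0.06, 0.25 and 0.25), to be read beside the same shares. Mycn, the MYC family member prominent in early embryos, was at 37.5, 88.8 and 76.8 FPKM in WT pluripotent, LIF withdrawal and embryoid body cells. In KO, Mycn was at 6.81 and 7.89, then 5.53 and 6.58, then 16.4 and 14.2 FPKM. The change was -2.23 ± 0.12 (adjusted p = 5.87e-08), -3.81 ± 0.11 (adjusted p = 1.70e-09) and -2.33 ± 0.10 (adjusted p = 2.55e-08), with every KO library below every WT library.

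Myc went the other way after LIF withdrawal, at 25.7 FPKM in WT against 63.2 and 52.0 in KO (1.23 ± 0.13, adjusted p = 1.57e-05), and in embryoid bodies (0.50 ± 0.13, adjusted p = 0.0105). In pluripotent culture Myc had 0.23 ± 0.13 (adjusted p = 0.139). Mycl was lower in KO in each culture (-1.69 ± 0.20, -1.41 ± 0.15 and -0.86 ± 0.15). Rps6kb1, which encodes S6 kinase 1, was at 11.2 FPKM in WT against 7.93 and 7.92 in KO pluripotent cells (-0.37 ± 0.10, adjusted p = 0.00722), and it was not called after LIF withdrawal (0.11 ± 0.10) or in embryoid bodies (0.20 ± 0.10). Atf4 was lower in KO embryoid bodies (-0.39 ± 0.11, adjusted p = 0.0153) and not called in pluripotent culture (0.09 ± 0.11) or after LIF withdrawal (-0.22 ± 0.11). Transcript levels do not show kinase or translation activity. Tsc2, which restrains mTORC1, was higher in pluripotent culture (0.48 ± 0.09) and embryoid bodies (0.52 ± 0.09). After LIF withdrawal Tsc2 was at 20.55 FPKM in WT against 24.9 and 25.03 in KO. Tsc1, on the same list, was called higher there (0.46 ± 0.11, adjusted p = 0.00534).

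**Figure D4:**
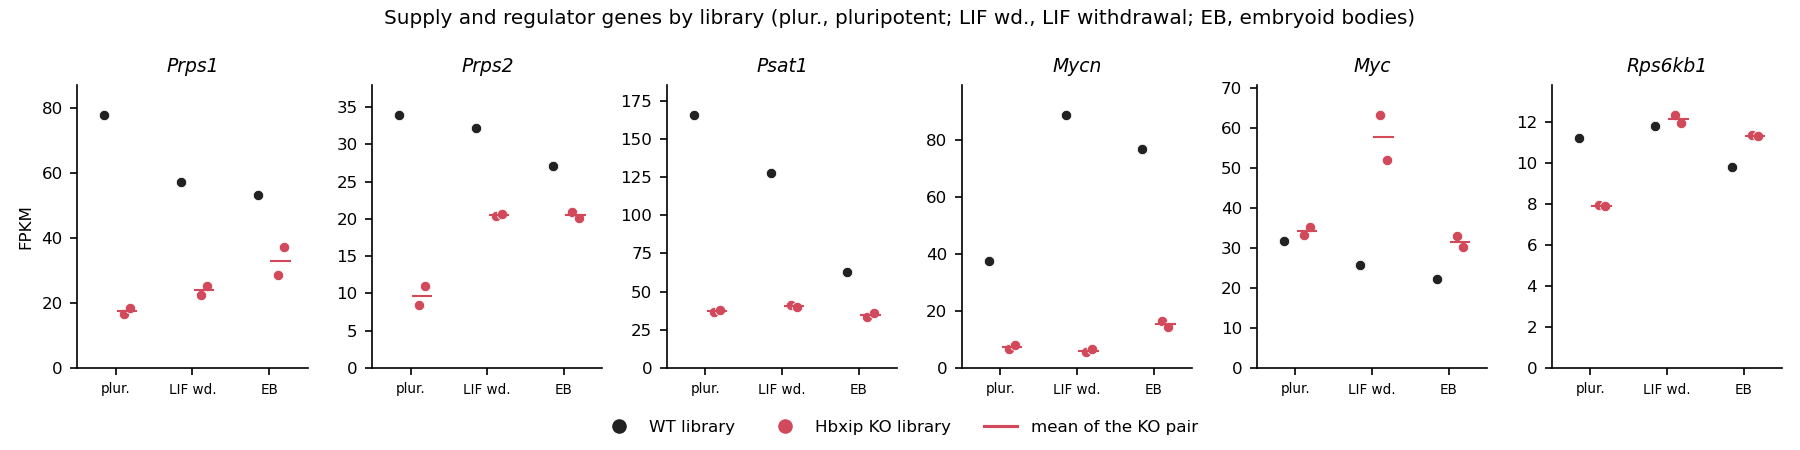
Level in FPKM (y axis, from 0) of the PRPP synthetase genes Prps1 and Prps2, the serine synthesis gene Psat1 and the regulators Mycn, Myc and Rps6kb1 in the 3 cultures (x axis), 1 point per library with a line at the mean of each KO pair. Mycn is at 5.53 to 16.4 FPKM in the 6 KO libraries and 37.5 to 88.8 FPKM in the 3 WT libraries.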

How the data were processed

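RNA was extracted as total RNA with an RNeasy Mini Kit, per the labels' protocols. Bowtie2 and mouse build mm8 are named in the submitters' processing notes; the quantifier, annotation version and strandedness are not given in the sources used here. For each gene of a library the authors deposited an expected count, a gene length and an FPKM value, per the file headers, and a gene not listed was set to 0. Of 20287 gene IDs, 20234 matched a RefSeq gene by ID and 9 by accession, used for names. Counts were rounded and tested with edgeR 4.0.16 (TMM factors 0.94 to 1.04, quasi-likelihood test) in R 4.3.3 on 13990 genes (mean FPKM 0.5 or more), in 1 fit with a mean for each of 6 groups (3 residual degrees of freedom, from the KO pairs; biological coefficient of variation 6.52%), and an additive fit of culture and genotype (5 degrees of freedom, 18.1%). Benjamini-Hochberg adjustment ran over all genes within each of 10 comparisons. Standard errors are |log2 fold change| / sqrt(F). Alternatives were DESeq2 1.42.0, DESeq2-type size factors, no filter, limma 3.58.1 on log2(FPKM + 1) and log2(FPKM + 0.1), leaving out each library, and a replicate block. The procedure was tested on simulated counts in which WT and KO libraries varied alike. That test therefore cannot check the assumption made here for the single WT libraries. Named genes were the 10 members, Myc, Mycn, Atf4 and Rps6kb1, and, from each other list and culture, genes among the 2 called per direction with the smallest adjusted p (mean FPKM 1 or more). Hprt, Rps6kb2 and the repeats of a named gene in other cultures were added. Members and lists were chosen with earlier results of these data known. A gene of the glutamine list is not reported here by name.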

Additional observations from a re-analysis of the deposited data

Results flagged for a closer look

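The difference between KO and WT differed between cultures for 2 of the 10 genes, by the interaction test of edgeR. The contrasts called 17.5% of all genes higher and 14.9% lower (LIF withdrawal) and 22.4% and 19.5% (embryoid bodies). The 2 higher calls among 10 genes were thus near the share of all genes in each contrast. For Gart the KO versus WT log2 fold change was -1.09 ± 0.08 in pluripotent culture and -0.41 ± 0.08 after LIF withdrawal, a difference of 0.68 (adjusted p = 0.000724), and -0.34 ± 0.08 in embryoid bodies, a difference of 0.76 (adjusted p = 0.000263). For Ppat it was -0.46 ± 0.08 in pluripotent culture and 0.15 ± 0.08 after LIF withdrawal, a difference of 0.61 (adjusted p = 0.00189), and 0.00 ± 0.08 in embryoid bodies, a difference of 0.46 (adjusted p = 0.00751). All 4 calls held with DESeq2, limma and each left-out library with which the contrast could be fitted. The 1 WT pluripotent library enters each of them and could not be left out.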

How the results depend on the processing

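Over 1310 results of a single member under an alternative, 1270 stayed on their side of the threshold, 26 lost the call and 14 gained one. No called value changed sign, while 32 values that were called in neither fit did, to values from -0.09 to 0.09. DESeq2 called 3 members in place of 6 for KO versus WT after LIF withdrawal, and limma on log2(FPKM + 1) called 2 in place of 1 for LIF withdrawal in WT. Over all genes DESeq2 called 4792 in place of 7248 (KO versus WT, pluripotent), 2840 in place of 5011 (LIF withdrawal), 2889 in place of 5204 (embryoid bodies), 1228 in place of 2867 and 2929 in place of 5400 (WT responses to LIF withdrawal and in embryoid bodies), and 2374 in place of 4528 and 3284 in place of 5857 (genotype differences in these responses); the cause was not tested. Leaving out 1 library, the members called were 3 to 6 for KO versus WT after LIF withdrawal and 3 to 5 for KO embryoid bodies against KO pluripotent cells, and all genes called over the 3 cultures were 2544 to 5896, the highest without the WT pluripotent library. A WT library could not be left out of a comparison within its culture. With limma on FPKM the median of all genes was at -0.11 in pluripotent KO versus WT (-0.13 with the smaller pseudocount; -0.01 with edgeR), and at 0.10 (0.15) in the genotype difference of the embryoid body response. Whether the KO replicate numbers pair the libraries stays undecided, as each culture gives only 1 difference between KO libraries. Over genes, these differences correlated at 0.16 for pluripotent culture and LIF withdrawal. The values were 0.01 for pluripotent culture and embryoid bodies and 0.06 for LIF withdrawal and embryoid bodies. With the replicate block in edgeR, 1 of 20 member results changed. It was Paics in KO embryoid bodies against pluripotent cells (0.14, adjusted p = 0.0444), now called. Single WT libraries and 3 residual degrees of freedom limit all comparisons.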
